A study of Homo sapiens with 6 samples.

Results

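The cyclins, cyclin-dependent kinases and phosphatase that carry cells from G1 into S phase were examined in MDA-MB-231 shBry cells and MDA-MB-231 shNC cells. The members were taken by exact gene symbol: the D-type cyclin genes CCND1, CCND2 and CCND3, the E-type cyclin genes CCNE1 and CCNE2, the cyclin A gene CCNA2, the kinase genes CDK2, CDK4 and CDK6, and the phosphatase gene CDC25A. All 10 were among the 54259 gene symbols of the count table, and all 10 had enough counts to be tested. MDA-MB-231, an established cell line, was derived from a human breast cancer. Bulk RNA of 3 libraries with the hairpin shBry, against the transcription factor brachyury, and 3 libraries with the control hairpin shNC was sequenced. The series' design text calls the RNA pericardial, whereas the sample labels name this line and were followed. No other treatment and no time point is given. Whether each line is a clone or a pool, and whether the libraries come from separate cultures, is not given in the sources used here, so the p-values measure the spread between these libraries, which may be technical.

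Progress through G1 is driven by D-type cyclins, which bind and activate the kinases CDK4 and CDK6. These kinases phosphorylate the retinoblastoma protein RB and so release E2F transcription factors, which in turn switch on the genes of cyclin E, cyclin A and the DNA replication machinery. Cyclin E and cyclin A then bind and activate CDK2, and the phosphatase CDC25A removes inhibitory phosphates from it. The pathway is often altered in breast cancer.

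Between 19319411 and 22985371 reads per library were counted on genes. The targeted gene, listed under its older symbol T, had 0 counts in all 6 libraries, so the knockdown could not be checked. A count of 0 allows up to 3 counts, or 0.126 to 0.162 CPM (counts scaled to a common library size) depending on the library, for counting error only. The mesenchymal markers VIM, CD44, AXL, CAV1 and LGALS1 were expressed in every library. CAV1 was lower in shBry (log2 fold change -1.11, edgeR adjusted p = 1.4e-07), and the others lay between -0.27 for VIM and 0.34 for CD44. A list of 5 genes taken to be absent or near 0 in this line was a choice not checked against other data. Of these 5 genes, ESR1, PGR and CDH1 had at most 2 counts in any library. KRT8, a keratin of luminal epithelium, was found at 838 to 921 CPM in shNC and 212 to 259 CPM in shBry (log2 fold change -1.90, edgeR adjusted p = 9e-10). EPCAM, an epithelial adhesion molecule, was low but higher in shBry, with 1.55 ± 0.513 CPM in shNC and 4.28 ± 0.681 in shBry (log2 fold change 1.47, edgeR adjusted p = 0.00034). The defining markers of leukocytes summed to at most 0.229 CPM, and those of erythroid cells were at 0. Of 5 fibroblast markers, DCN was at 0 in all libraries and PDGFRB was the one above 1 CPM. Endothelial markers summed to 1.29 to 2.62 CPM in shBry and 3.40 to 4.63 CPM in shNC. Counts of libraries within a group differed beyond sampling noise, and the chi-square per degree of freedom over genes lay between 5.05 and 17.1. The shBry replicate 2 and the shNC replicate 3 lay farthest from the others of their groups. In these libraries the deviation from the group mean went down with the GC content of the transcript, with a Spearman correlation across 9075 genes of -0.453 and -0.815. It went up with the length of the transcript, with 0.583 and 0.289. In shBry replicate 1, shNC replicate 1 and shNC replicate 2 the correlation with GC content was positive, at 0.566, 0.629 and 0.493. Genes are not independent replicates in such a correlation.

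CCND2 and CDK6 were higher in shBry, and CCNE2, CCNA2 and CDK2 were lower. CCND1, CCND3, CCNE1, CDK4 and CDC25A were not called. A gene was called when edgeR's quasi-likelihood test gave a Benjamini-Hochberg adjusted p below 0.05 over all 15277 tested genes and the fold change was above 1.5. Thus 5 of 10 members were called, 2 higher and 3 lower, where 32.4% of all tested genes were called, 17.1% higher and 15.2% lower. The median log2 fold change of the members was -0.08, against 0.03 for all tested genes. Values of the 3 shBry libraries did not overlap those of the 3 shNC libraries for 8 of 10 members, and for 59.5% of all tested genes. The same 5 members were called without shBry replicate 2 and shNC replicate 3. CPM values are TMM-normalized, and each fold change is that of shBry relative to shNC. In bulk RNA, fewer cells in a cycle phase and less RNA per cell cannot be told apart.

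**Figure D1:**
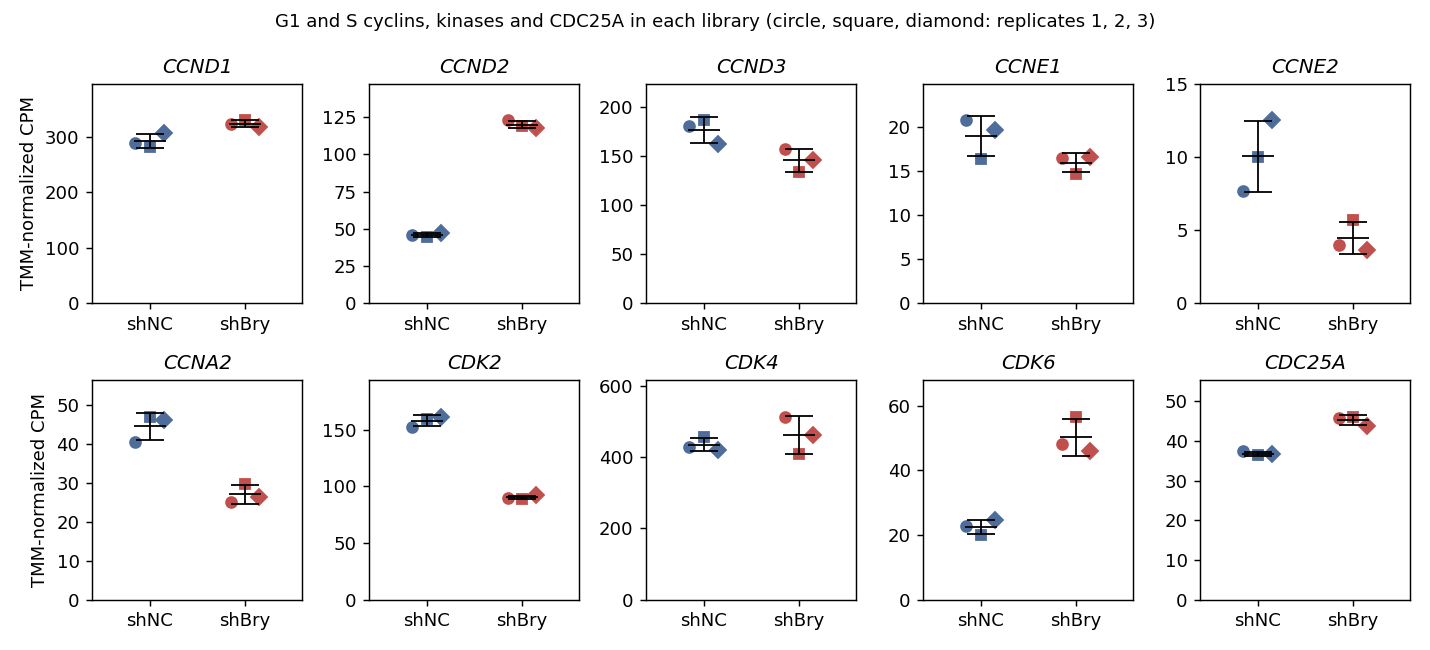
TMM-normalized CPM (y axis, from 0) of each member in the 3 shNC libraries (blue) and the 3 shBry libraries (red), with circles, squares and diamonds for replicates 1, 2 and 3 and black bars for the mean ± SD. CCND2 and CDK6 sit higher in all 3 shBry libraries, CCNE2, CCNA2 and CDK2 sit lower, and the groups overlap for CCNE1 and CDK4.

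The regions just upstream of the RefSeq start of CCNE1, CCNA2, CDC25A and CDK6 are shown. In the set of RefSeq starts used here, which does not hold all members, only these 4 had a start near that in the gene annotation. Of these, CCNE1, CCNA2 and CDC25A are genes on which E2F factors are known to act. The sequences are those of RefSeq on GRCh38.p14, read 5′ to 3′ on the gene's strand from base -110 to base -1, counted from the RefSeq start site. In the gene annotation the starts of CCNE1, CCNA2 and CDK6 lie inside these windows. Part of each of those windows, and most of that of CCNE1, is thus within the annotated gene. Capitals mark matches, on either strand, to 4 motifs: TTTNGCGC, a core of the E2F site, TGACGTCA, the full cyclic AMP response element, TTTGAA, the core of the cell cycle homology region, and GGGCGG, the GC box. The regions are chr19:29811881-29811990 on the plus strand for CCNE1, chr4:121823884-121823993 on the minus strand for CCNA2, chr3:48188418-48188527 on the minus strand for CDC25A, and chr7:92836574-92836683 on the minus strand for CDK6.
CCNE1: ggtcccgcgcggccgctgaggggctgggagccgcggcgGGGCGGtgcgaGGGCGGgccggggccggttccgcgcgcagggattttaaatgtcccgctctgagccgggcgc
CCNA2: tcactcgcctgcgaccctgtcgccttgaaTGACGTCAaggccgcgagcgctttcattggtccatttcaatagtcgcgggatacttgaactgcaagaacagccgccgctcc
CDC25A: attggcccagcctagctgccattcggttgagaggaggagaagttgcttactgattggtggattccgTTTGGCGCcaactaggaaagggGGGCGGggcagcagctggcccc
CDK6: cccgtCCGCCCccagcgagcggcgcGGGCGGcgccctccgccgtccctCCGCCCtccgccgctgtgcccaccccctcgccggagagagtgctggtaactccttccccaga

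The CCNE1 window holds GC boxes at -72 and -61 and none of the other motifs, and the 300 bases around its start hold 7 GC boxes. TTTNGCGC had 0 matches in the 300 bases of CCNE1, CCNA2 and CDK6, which says only that these letters are not there. The CCNA2 window holds TGACGTCA at -81, which reads alike on both strands. No exact TTTGAA is in any of the windows shown. Near matches, such as cttgaa in the CCNA2 window, were not searched and are not marked. The CDC25A window holds the E2F core at -44 and a GC box at -22, and the CDK6 window holds GC boxes at -105, -85 and -62. In windows of 300 bases around 35116 gene starts, TTTNGCGC was found in 1.79%, TGACGTCA in 1.85%, TTTGAA in 15.2% and GGGCGG in 45%. These matches are a description of letters and not of bound sites.

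D-type cyclins are the part of the pathway that responds to growth signals, and of their 3 genes CCND2 was called. CCND2, on chromosome 12 of GRCh38 from 4273772 to 4305350, encodes cyclin D2. It had 46.0, 44.6 and 47.2 CPM in shNC replicates 1, 2 and 3, and 123, 119 and 118 CPM in shBry replicates 1, 2 and 3. Each shBry library was far above each shNC library, and the spread within a group was small. CCND2 rose from a mean of 45.9 ± 1.30 to 120.1 ± 2.59 CPM (SD, n = 3; log2 fold change 1.39, SE 0.08, edgeR adjusted p = 6.4e-09), which is 2.62-fold. An uncharacterized transcript on the same strand overlaps 15.3% of its exon bases. A share of 13.2% of the stretches of 50 bases in its transcripts recurs in that transcript or in a pseudogene, CCND2P1, which was listed at 0 in every library.

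CCND1, on chromosome 11 from 69641087 to 69654474, encodes cyclin D1, the main D-type cyclin of many breast cancers. It had 289, 282 and 307 CPM in shNC and 323, 330 and 318 CPM in shBry. The shBry values lay just above the shNC values without overlap. Its log2 fold change was 0.14 (SE 0.07, edgeR adjusted p = 0.12), so that CCND1 was not called. With each library left out in turn it stayed between 0.10 and 0.16. The gene LTO1 on the opposite strand overlaps 11.3% of its exon bases. LTO1 is listed as ORAOV1, and it was higher in shBry with a log2 fold change of 1.14. Its part in the CCND1 counts was not tested.

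CCND3, on chromosome 6 from 41934933 to 42050357, encodes cyclin D3. It had 181, 187 and 162 CPM in shNC and 157, 133 and 146 CPM in shBry. Its shBry values were all below the shNC values, though shBry replicate 1 was close to shNC replicate 3. Its log2 fold change was -0.28 (SE 0.09, edgeR adjusted p = 0.016), inside the fold change limit of 1.5. With each library left out, its adjusted p in the same edgeR test lay between 0.0031 and 0.055.

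Levels of different genes were compared per kb of exon, as the CPM divided by the length of the union of a gene's exons in GENCODE 29. Bases that overlap other genes were kept in this length, and the effect of this on the levels was not tested. On this scale the sum of the D-type cyclins was 118.3 ± 0.335 CPM per kb in shNC and 129.0 ± 2.79 in shBry (SD, n = 3). CCND2 made up 5.99% ± 0.178 of this sum in shNC and 14.4% ± 0.113 in shBry. CCND3 made up 37.8% ± 2.70 in shNC and 28.6% ± 1.83 in shBry, whereas CCND1 made up 56.2% ± 2.52 and 57.0% ± 1.74. The share of CCND2 was thus higher and that of CCND3 lower in all 3 shBry libraries, while the ranges for CCND1 overlapped. These shares depend on the length used for CCND3, whose transcripts differ in length. With the longest transcript, CCND3 held 49.5% in shNC and 39.4% in shBry, CCND2 4.76% and 12.0%, and CCND1 45.7% and 48.6%.
The ratio of CCND1 to CCND3 counts within a library needs no scaling of libraries. It was 1.597, 1.51 and 1.89 in shNC and 2.05, 2.47 and 2.17 in shBry. The log2 ratio was higher by 0.42 in shBry (SE 0.13, two-sided exact permutation test, p = 0.1, the smallest p that 3 against 3 libraries allow).

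CDK4 and CDK6 are the catalytic partners of the D-type cyclins. CDK6, on chromosome 7 from 92604921 to 92836594, had 22.8, 20.04 and 24.5 CPM in shNC. In shBry it had 48.0, 56.6 and 46.0 CPM. The lowest shBry value was well above the highest shNC value. CDK6 rose from 22.5 ± 2.25 to 50.2 ± 5.64 CPM (SD, n = 3; log2 fold change 1.16, SE 0.12, edgeR adjusted p = 1.4e-06), which is 2.24-fold. Its longest transcript has a GC content of 39.5%. Without shBry replicate 2 and shNC replicate 3 the log2 fold change was 1.09, and it was 1.04 after the trend with GC content and length over all genes had been removed.
CDK4, on chromosome 12 from 57747727 to 57756013, had the highest level of the members. It had 428, 457 and 422 CPM in shNC and 514, 409 and 463 CPM in shBry. The groups overlapped, with shBry replicate 2 below all shNC libraries and shBry replicate 1 above them. Its log2 fold change was 0.09 (SE 0.09, edgeR adjusted p = 0.44), and it was -0.0012 without shBry replicate 1. TSPAN31 on the opposite strand overlaps 51.9% of the exon bases of CDK4. TSPAN31 was higher in shBry, from 21.7 ± 0.761 to 34.2 ± 1.67 CPM, and its part in the CDK4 counts was not tested.
CDK4 counts exceeded CDK6 counts 18.7, 22.8 and 17.2 times in shNC and 10.7, 7.22 and 10.1 times in shBry. The log2 ratio was lower in shBry in all 3 libraries, with a difference of -1.08 (SE 0.21, exact permutation test, p = 0.1, the smallest possible). Per kb, CDK6 made up 0.908% ± 0.126 of the sum of both kinases in shNC and 1.92% ± 0.417 in shBry (SD, n = 3). CDK4 therefore held nearly all of the sum in both groups.

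**Figure D2:**
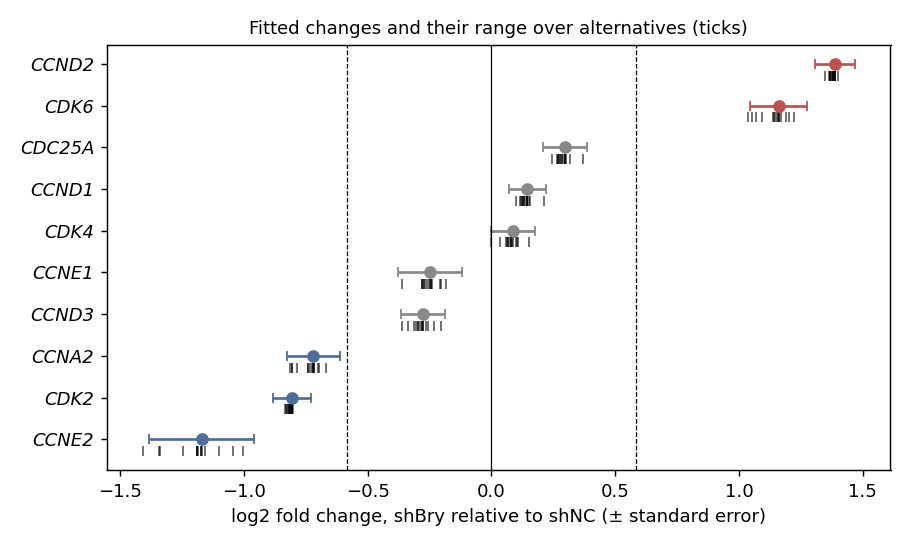
Log2 fold change of each member, shBry relative to shNC (x axis), as points with their SE, red for called higher, blue for called lower and grey for not called. Small black ticks are the values under the alternatives, and dashed lines mark the fold change limit of 1.5. The 5 called members stay outside the dashed lines under every alternative drawn, and the ticks of CDK4 reach 0.

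E-type cyclins activate CDK2 at the G1/S boundary, and both genes had low counts. CCNE1, on chromosome 19 from 29811898 to 29824308, had 20.8, 16.4 and 19.6 CPM in shNC and 16.5, 14.7 and 16.6 CPM in shBry. The groups overlapped through shNC replicate 2. Its log2 fold change was -0.25 (SE 0.13, edgeR adjusted p = 0.12), so that CCNE1 was not called.
CCNE2, on chromosome 8 from 94879770 to 94896678, had 7.65, 9.97 and 12.5 CPM in shNC and 3.98, 5.69 and 3.64 CPM in shBry. The counts behind these values were 167, 211 and 250 reads in shNC and 74, 135 and 82 reads in shBry. The groups did not overlap, but the spread was the widest of the members relative to the mean. CCNE2 fell from 10.05 ± 2.44 to 4.44 ± 1.10 CPM (SD, n = 3; log2 fold change -1.17, SE 0.21, edgeR adjusted p = 0.00038). With each library left out in turn it lay between -1.41 and -1.01. CCNE2 has the lowest GC content of the members, 36.9%, and its highest values in each group were those of shBry replicate 2 and shNC replicate 3. Without these 2 libraries its log2 fold change was -1.25 (edgeR adjusted p = 7e-05). Genes on the opposite strand, INTS8 among them, overlap 47.6% of its exon bases. INTS8 had 37.3 ± 6.37 CPM in shNC and 27.0 ± 4.93 in shBry, with a log2 fold change of -0.46, and its part in the CCNE2 counts was not tested.
Per kb, the sum of both E-type cyclins was 12.0 ± 1.16 in shNC and 8.96 ± 0.216 in shBry. CCNE2 made up 24.3% ± 5.30 of it in shNC and 14.5% ± 3.96 in shBry, with ranges that overlapped. The ratio of CCNE1 to CCNE2 counts was 2.71, 1.64 and 1.57 in shNC and 4.13, 2.57 and 4.55 in shBry. The groups overlapped here too, and the log2 ratio was higher by 0.93 in shBry (SE 0.36, exact permutation test, p = 0.2).

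CCNA2, on chromosome 4 from 121816444 to 121823933, encodes cyclin A2, which partners CDK2 in S phase and CDK1 in G2. It had 40.6, 47.1 and 46.1 CPM in shNC and 25.1, 29.8 and 26.3 CPM in shBry. All shBry values were below all shNC values. CCNA2 fell from 44.6 ± 3.48 to 27.1 ± 2.42 CPM (SD, n = 3; log2 fold change -0.72, SE 0.11, edgeR adjusted p = 6.2e-05), or 1.65-fold lower. With each library left out it lay between -0.81 and -0.67. The gene EXOSC9 on the opposite strand overlaps 5.15% of the exon bases of CCNA2, and its part in the CCNA2 counts was not tested.
CDK2, on chromosome 12 from 55966769 to 55972784, encodes the kinase of cyclins E and A. It had 152, 160 and 162 CPM in shNC and 89.7, 89.2 and 92.1 CPM in shBry. The groups were far apart, and the spread within each was narrow. CDK2 fell from 158 ± 4.86 to 90.3 ± 1.53 CPM (log2 fold change -0.81, SE 0.08, edgeR adjusted p = 8.9e-07), or 1.75-fold lower. A gene on the opposite strand overlaps 11.8% of its exon bases.
CDC25A, on chromosome 3 from 48157146 to 48188402, encodes the phosphatase that activates CDK2. It had 37.3, 36.4 and 36.7 CPM in shNC and 45.7, 46.1 and 43.8 CPM in shBry. The 3 shBry values were all above the shNC values, and both groups were tight. Its log2 fold change was 0.30 (SE 0.09, edgeR adjusted p = 0.013) and was too small to be called. With each library left out, the adjusted p of that test lay between 0.031 and 0.072. Without a fold change limit, CCND3 and CDC25A passed beside the 5 called members, so that 7 of 10 members had an adjusted p below 0.05.

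The order of the length-scaled levels differed between the groups. In shNC it ran from CDK4 (209.7 CPM per kb) through CCND1 (66.5), CDK2 (64.7), CCND3 (44.8), CCNA2 (15.9), CDC25A (9.73), CCNE1 (9.11), CCND2 (7.08) and CCNE2 (2.93) to CDK6 (1.91). The ranges of CCND1 and CDK2 overlapped, as did those of CDC25A and CCNE1. In shBry it ran from CDK4 (223) through CCND1 (73.5), CDK2 (37.0), CCND3 (37.0), CCND2 (18.5), CDC25A (12.0), CCNA2 (9.67), CCNE1 (7.67) and CDK6 (4.28) to CCNE2 (1.29). In that group the ranges of CDK2 and CCND3 overlapped. CCND2 thus stood at position 8 in shNC and position 5 in shBry, and CCNE2 took the last position from CDK6. With the longest transcript as length, CCND3 moved to position 2 and CCND1 to position 4 in shNC. In shBry, CCND3 moved to position 3 and CDK2 to position 4. The positions of CCND2, CCNE2 and CDK6 were as above.

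**Figure D3:**
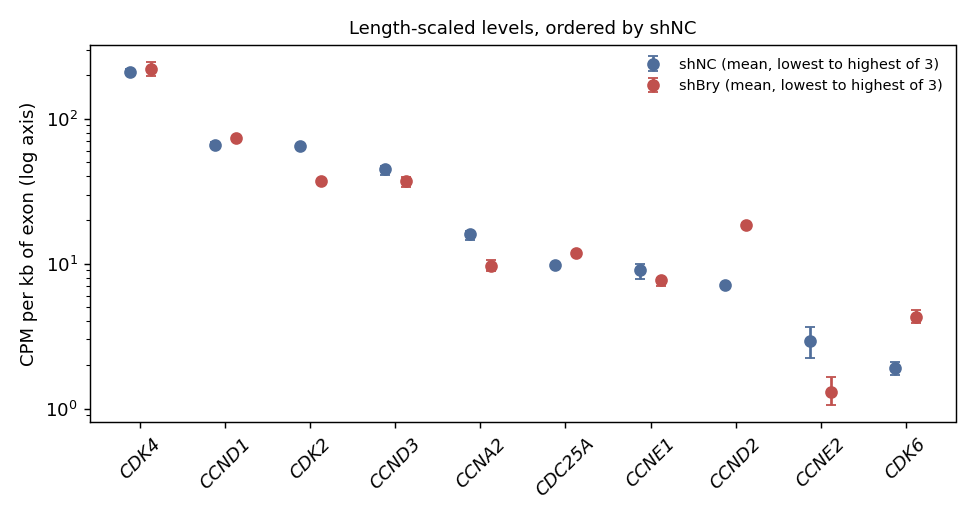
Length-scaled level of each member in CPM per kb of exon (y axis, log scale) in shNC (blue) and shBry (red), ordered by the shNC mean. Points are means and bars reach from the lowest to the highest of 3 libraries. CCND2 and CDK6 are the members whose red points stand clearly above the blue ones, and CDK2, CCNA2 and CCNE2 stand below.

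The genes with the profile most like CCND2 over the 6 libraries, measured by the root mean square difference of centred log2 CPM, were IRF1 (0.035), RPS6KA2 (0.050) and HERPUD1 (0.051). Those most like CCNE2 were TOP2B (0.094), ASPM (0.127) and HELLS (0.128). Genes whose mean lay under 10 CPM were left out of this comparison.

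Other genes of the pathway were examined by lists, read beside the 32.4% of all tested genes that were called. Among the 11 tested cyclins, kinases and regulators of G2 and mitosis, 6 were lower and 2 were higher in shBry, with a median log2 fold change of -0.64. CCNF, a cyclin-like ubiquitin ligase subunit, had a log2 fold change of -1.37, and CDC25C, the phosphatase that activates CDK1, had -1.16. CCNB1, which encodes cyclin B1, fell from 265 ± 4.50 to 170 ± 21.1 CPM, and its kinase CDK1 fell from 77.1 ± 18.7 to 48.8 ± 5.62 CPM. Both were close to the fold change limit: CCNB1 had -0.57 without shBry replicate 2, and CDK1 had -0.58 without shBry replicate 1 and -0.50 without shNC replicate 3. The 2 genes called higher, CCNB3 (1.15) and CCNA1 (0.76), are cyclins known from the germ line, and their means stayed below 10 CPM.
Of 8 CDK inhibitor genes, 5 were tested, 1 was higher and 2 were lower, with a median log2 fold change of -0.56. CDKN1A, which encodes p21, an inhibitor of CDK2 complexes, had 2.13. CDKN2C and CDKN2D, which encode the p18 and p19 inhibitors of CDK4 and CDK6, had -3.30 and -0.76. CDKN1B, which encodes p27, was not called with 0.21. CDKN2A and CDKN2B, the genes of p16 and p15, were at 0 in all libraries.
Of the CDK-activating kinase and partners, CCNH (0.69) and CDK7 (0.66) were called higher and CKS1B (-0.71), a CDK-binding subunit of the SKP2 ligase, lower, out of 5 tested genes with a median of 0.41. CDK7 had 2.76 ± 0.988 CPM in shNC and 4.37 ± 0.759 in shBry, with groups that overlapped. Its adjusted p of 0.046 was 0.066 without TMM and 0.061 with DESeq2. With shBry replicate 1, shBry replicate 3, shNC replicate 1 or shNC replicate 2 left out, it lay between 0.058 and 0.22 (same edgeR test). CDC37, a chaperone partner that loads CDK4 and other kinases, had -0.58 and lay just inside the fold change limit. The balance of directions in this list turned to 1 higher and 2 lower without TMM or with DESeq2, and it was 2 higher and 2 lower without the filter or with at least 10 counts in every library.

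Of 16 tested genes of G1 and S cyclin turnover, 5 were lower and 0 higher at these limits, a share of 31.2% called, with a median log2 fold change of -0.19. Without shBry replicate 2 and shNC replicate 3, 3 of these genes were called. SKP2, the ubiquitin ligase subunit that targets p27, fell from 92.7 ± 10.5 to 24.1 ± 2.56 CPM (log2 fold change -1.94, SE 0.11, edgeR adjusted p = 5.4e-09). CUL3, a scaffold for the turnover of cyclin E, had -0.83.
Of 12 tested RB and E2F factors, 5 were lower and 2 were higher, with a median of -0.36. E2F1, an activator of S-phase genes, fell from 134 ± 8.22 to 47.8 ± 1.28 CPM (log2 fold change -1.49), and the repressor gene E2F8 had -1.77. E2F5 (1.53) and E2F3 (0.63) were higher, E2F3 with 0.53 and thus under the limit without shBry replicate 3. RB1 was not called, with 23.9 ± 3.35 CPM in shNC and 21.6 ± 4.51 in shBry.
Of 22 E2F target genes of S phase, 21 were lower and 0 higher, with a median of -1.30. MCM5 (-2.49), a subunit of the replicative helicase, and ORC1 (-2.14), of the origin recognition complex, changed most. The gene that was not called was CDC6, chosen here after its value was seen, with 87.9 ± 2.64 CPM in shNC and 88.3 ± 6.74 in shBry. Of the members, CCNE1, CCNE2, CCNA2 and CDC25A are also known as E2F targets. CCNE2 and CCNA2 fell, whereas CCNE1 had -0.25 and CDC25A 0.30.
Of 30 tested cyclins and kinases with other roles, in transcription and elsewhere, 4 were lower and 3 higher, a share of 23.3% called, with a median of -0.07. CDK14 (-1.30), CCNG1 (-0.86), CCNT2 (0.85) and CCNJ (0.80) had the largest called changes of the list in each direction.

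**Figure D4:**
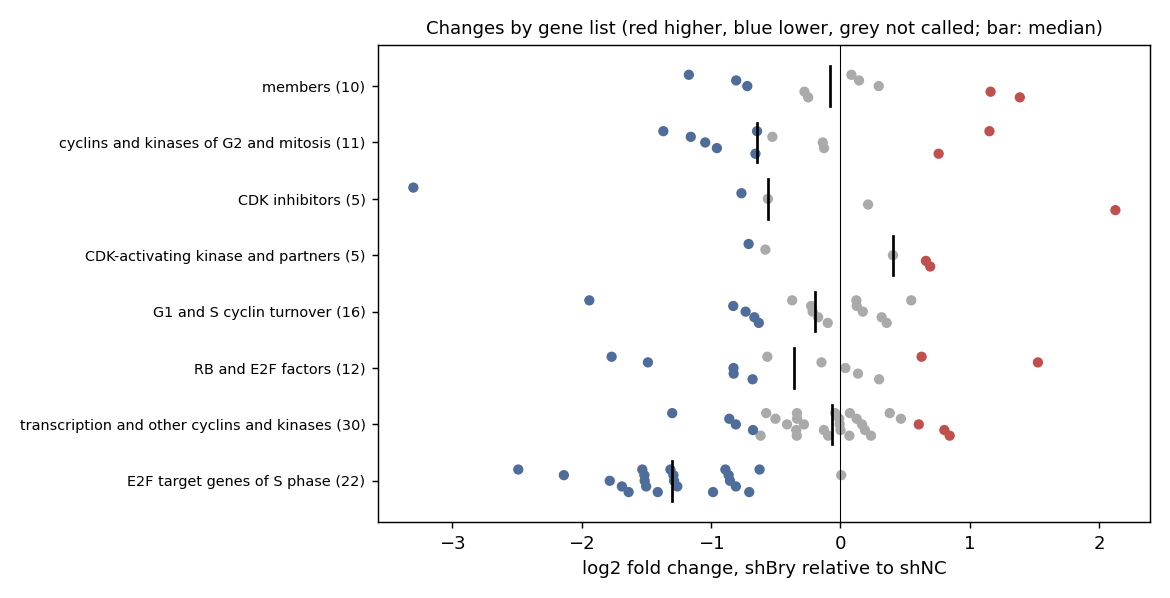
Log2 fold change of each tested gene, shBry relative to shNC (x axis), by list, with the number of tested genes in parentheses and the median as a black bar. Red points were called higher, blue lower and grey not called. The members spread to both sides of 0 with a median of -0.08, whereas 21 of 22 E2F target genes of S phase lie to the left.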

How the data were processed

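The authors deposited raw counts, whole numbers of reads per gene symbol and library, without normalization. The submitters' processing notes name HISAT2 2.0.4, HTSeq and GRCh38. The annotation, the strand setting and the filters are not given in the sources used here. Genes that overlap could therefore share or lose counts. Columns were matched to samples by title.

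Genes were filtered with filterByExpr (minimum count 10), scaled with TMM and tested in edgeR 4.0.16 (R 4.3.3), with its quasi-likelihood method, over all 15277 genes that passed. To be called, a gene needed a change above 1.5-fold and a p, adjusted after Benjamini and Hochberg, below 0.05. Standard errors are the log2 fold change divided by the square root of F. Count ratios used a pseudocount of 0.5. The edgeR fit and its calls were checked on simulated counts, the alternatives were not. Gene positions, lengths, overlaps and shared stretches came from GENCODE 29 on GRCh38. Upstream sequences came from a set of RefSeq starts that does not hold all members. In this set 6 of 10 members were listed and 4 had a start within 500 bases of that in GENCODE. The members, lists and tests were chosen with earlier results of these data known. All members were named, and of each list up to 2 called genes with the largest rise and fall, besides direct partners of the members. Alternatives were no TMM, DESeq2 1.42.0, limma-voom (limma 3.58.1), other filters and limits, a block, libraries left out, and fold changes with the GC and length trend removed.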

Additional observations from a re-analysis of the deposited data

How the results depend on the processing

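Apart from the settings chosen after seeing the data, the 10 members gave 130 values under other settings. Of these 130 values, 129 kept their direction and whether the gene was called. The adjusted p of the edgeR test crossed 0.05, with no effect on a call, for CCND3 without shBry replicate 3 (0.051) or shNC replicate 2 (0.055) and for CDC25A without shNC replicate 2 (0.072). The direction turned for CDK4, which moved between -0.0012 without shBry replicate 1 and 0.15 without shBry replicate 2. The same 5 members were called with no TMM, DESeq2, limma-voom, either filter, unadjusted p and each library left out. A fold change limit of 2 left 3 members and 2297 of all genes, and no fold change limit gave 7 members and 8139 genes. The deviations of same-numbered libraries had correlations of 0.504, -0.301 and -0.115 for replicates 1, 2 and 3. Deviations from a mean of 3 libraries depend on each other, so these correlations cannot decide whether the numbers pair the libraries. With the replicate block, 4914 genes and 5 members were called. With each library left out, the difference of the log2 ratio lay between 0.35 and 0.52 for CCND1 to CCND3, between 0.77 and 1.18 for CCNE1 to CCNE2, and between -1.19 and -0.90 for CDK4 to CDK6. CDC6, not called in any fit, had -0.014 without TMM, -0.014 with DESeq2, -0.019 without the filter and -0.0035 with at least 10 counts in every library. It had -0.018, -0.036, -0.020 and -0.016 without shBry replicates 1 and 3 and shNC replicates 1 and 2, and up to 0.054 without shBry replicate 2. Exclusion of shBry replicate 2 with shNC replicate 3, and removal of the GC trend, were chosen after seeing the data. CCNE2 had 74 to 250 reads per library, the fewest of the members.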
